A study of Mus musculus with 18 samples.

Results

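The Hox genes encode homeodomain transcription factors. A Hox gene was here any row of the table whose symbol is Hox, a cluster letter from a to d, and a number, and 39 of the 24405 genes kept in the table met this. The RNA was polyadenylated RNA from brain, called whole and postmortem in the labels, of male C57BL/6N mice with no transgene or deletion named, and the Hox genes were described as a measure of the hindbrain and cord that each dissection held. The 4 groups comprised 17 libraries with 1 mouse each. Young vehicle mice (n = 4, 6 months) and old vehicle mice (n = 5, 27 months) drank water with 0.2% carboxymethylcellulose, a thickener. Young apigenin mice (n = 3, 6 months) and old apigenin mice (n = 5, 27 months) drank the same water with 0.5 mg/mL apigenin, a plant flavone. Young apigenin replicate 3 was left out, because the values of its column are displaced against the gene names from Mrpl14 on. Libraries are numbered below as in the labels. Of the labelled whole brains, 2 stood apart in cerebellar genes: Gabra6, a receptor subunit of cerebellar granule cells, held 166 in young vehicle 1 and 1.03 in old apigenin 3 against 1607 to 3131 elsewhere.

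Hox genes lie in 4 clusters, in the mouse Hoxa on chromosome 6, Hoxb on chromosome 11, Hoxc on chromosome 15 and Hoxd on chromosome 2. Their order along a cluster follows their order along the body axis, so that genes with low numbers are active from the hindbrain backwards and genes with high numbers start further down the spinal cord. Genes with the same number in different clusters are paralogues. In the adult brain, Hox RNA is known from the medulla and pons, and forebrain and midbrain lie ahead of the Hox domains. Hox proteins bind DNA together with cofactors of the Pbx, Meis and Pknox families, the TALE homeodomain proteins. In bulk tissue fewer cells of a type and less RNA per cell cannot be told apart.

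The stretch of coding sequence for the recognition helix, the part of the homeodomain that contacts DNA, is shown for 2 members, from the front and the middle of the clusters, to show how alike Hox RNAs are at their most conserved place. The stretches, 39 bases each, were read from GENCODE vM21 transcripts (build GRCm38), and capitals mark bases that differ from the most common base among the 14 members that were tested.
Hoxa2: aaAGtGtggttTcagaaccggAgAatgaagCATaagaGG
Hoxb8: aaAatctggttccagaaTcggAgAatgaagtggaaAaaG
All 14 stretches differed in DNA, by 2 to 11 bases from the most common base, and encoded 3 distinct amino acid stretches. Runs of identical sequence were sought over the 91 pairs of tested members, with 1 representative transcript per gene. The longest run had a median of 17 bases and reached 47 bases for Hoxb3 and Hoxd3. Thus 0 pairs of these transcripts shared a run of over 50 bases. Other transcripts were not compared. Hoxd3 and Hoxd4, with a run of 29 bases here, share exons on the same strand in the annotation.

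Promoters are shown for the tested members in which the search found the paired Hox and Pbx motif TGATNNAT on either strand. RefSeq windows of 300 bases (GRCm38.p6), from 250 before to 50 after the start, were matched for 22 of the 39 members, as 24 windows. The motif, in capitals below, was present in 4 of the 24 windows (Hoxa2, Hoxb1, Hoxb8 and Hoxd11), and in 8.85% of 32851 windows of all genes.
Hoxa2: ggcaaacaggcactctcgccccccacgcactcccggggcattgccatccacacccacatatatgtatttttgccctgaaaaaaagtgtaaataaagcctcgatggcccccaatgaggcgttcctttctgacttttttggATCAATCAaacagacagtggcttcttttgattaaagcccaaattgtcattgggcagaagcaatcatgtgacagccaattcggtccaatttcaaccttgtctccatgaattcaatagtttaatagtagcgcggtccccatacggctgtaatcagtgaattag
Hoxb8: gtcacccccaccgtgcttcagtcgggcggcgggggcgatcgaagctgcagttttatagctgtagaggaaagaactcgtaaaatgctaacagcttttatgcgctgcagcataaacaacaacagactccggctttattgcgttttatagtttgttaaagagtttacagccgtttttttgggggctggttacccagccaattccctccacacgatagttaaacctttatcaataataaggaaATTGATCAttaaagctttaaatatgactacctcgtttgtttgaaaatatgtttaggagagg
The Hoxa2 window is chr6:52164782-52165081 on the minus strand and the Hoxb8 window is chr11:96281655-96281954 on the plus strand. The CCAAT box, CCAAT on either strand, was present in 15 of the 24 windows and in 37.4% of all windows. The Meis motif TGACAG was in 2 of the 24 windows (Hoxa2 and Hoxa3) and in 19.2% of all windows. The TATA box, TATAAA, was in 4 of the 24 windows and in 13.6% of all windows. These matches describe letters in these windows and were compared with no test.

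Hox RNA was sparse. The libraries held 28171596 to 41145635 reads each, and the 17 together held 10367 reads of Hox genes. A value is a normalised read count, reads over a scaling factor that each library has, and 1 read is worth about 1 in each library. Of the 39 members, 33 had a read in at least 1 library and 4, among them Hoxb3, Hoxc4 and Hoxd1, had one in all 17. Hoxa11, Hoxb9, Hoxc9, Hoxc10, Hoxc12 and Hoxd12 had 0 reads throughout, and in a single library a count of 0 allows a value of up to 2.45 to 3.57 (3 reads, counting error only). Tests were confined to genes with a mean of at least 10 over the libraries. Those that met this were 14 members, Hoxa2, Hoxa3, Hoxa4, Hoxa5, Hoxb2, Hoxb3, Hoxb4, Hoxb5, Hoxb6, Hoxb8, Hoxc4, Hoxc5, Hoxd3 and Hoxd4. The other 25 reached at most 28.4 in any library, the value of Hoxb7 in young vehicle 3.

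The reads lay in the front and middle of the clusters. Paralogue groups 1 to 3, the genes of hindbrain segments, made up 29.1% of Hox reads with 5 of 8 members tested. Groups 4 to 5, the genes of the caudal medulla and upper cord, made up 52.2% with 7 of 7 members tested, and groups 6 to 8 made up 18.2% with 2 of 8. Groups 9 to 13, the genes of the posterior trunk, lumbar cord and limbs, gave 49 reads (0.473%) over 10 of 16 members, and 0 of them reached the mean of 10. By cluster, Hoxb held 54.6% of Hox reads, Hoxa 23.4%, Hoxc 12.8% and Hoxd 9.28%. Per kilobase of exon in GENCODE vM21, the highest mean level was that of Hoxb5 (40.4 per kb), then Hoxa5 (35.5), Hoxb8 (22.2) and Hoxc4 (21.0).

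**Figure D1:**
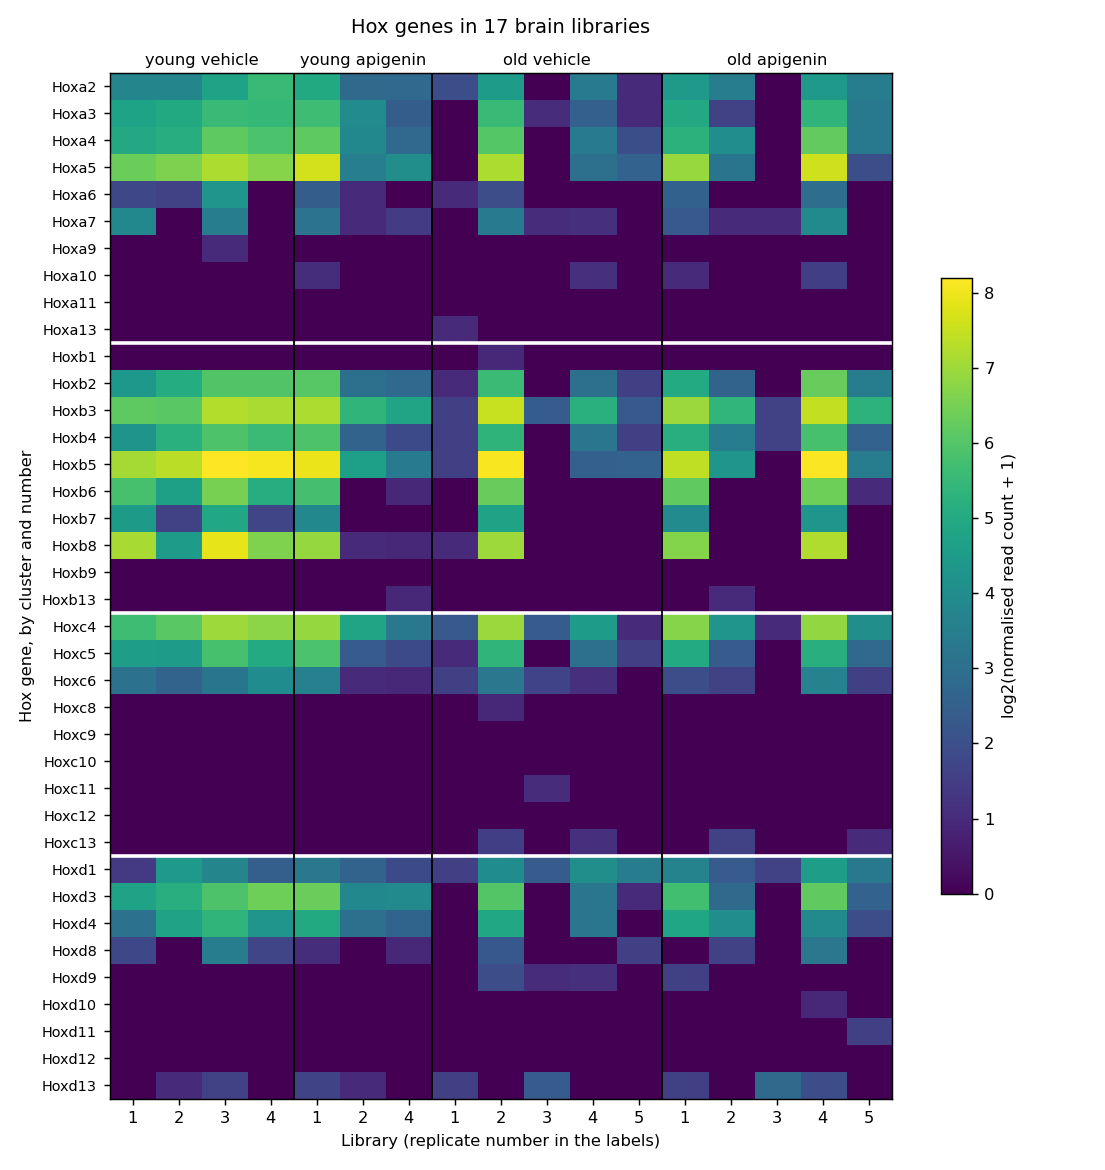
Level of Hox genes (rows, by cluster, all members but 1) in each of the 17 libraries (columns, by group), as log2(normalised read count + 1) on the colour scale. Old vehicle 2 was bright for Hoxb5 (278) while old vehicle 3 was at 0 there, and rows of paralogue groups 9 to 13 were dark throughout, with at most 6.20.

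The summed Hox level varied widely between libraries of a group. The 4 young vehicle libraries held 746, 698, 1554 and 1178 (mean 1044 ± 403 SD, n = 4). Young apigenin 1, 2 and 4 held 1382, 186 and 122 (563 ± 710 SD, n = 3). The young apigenin libraries were thus split, 1 as high as the vehicle libraries and the others far lower. The 5 old vehicle libraries held 27.5, 1362, 30.7, 161 and 39.3 (324 ± 583 SD, n = 5). The 5 old apigenin libraries held 1005, 168, 19.6, 1482 and 141 (563 ± 646 SD, n = 5). Old vehicle 2 was at the level of young vehicle mice, as were old apigenin 1 and 4, and the rest of the old libraries lay below every young vehicle library. No library lay between 186 and 698: 8 were above this gap (684 to 1568 Hox reads), 5 stood at 122 to 186 (135 to 181 reads) and 4 at 19.6 to 39.3 (19 to 40 reads). These ranges describe libraries, are not groups of the study and were not tested.

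**Figure D2:**
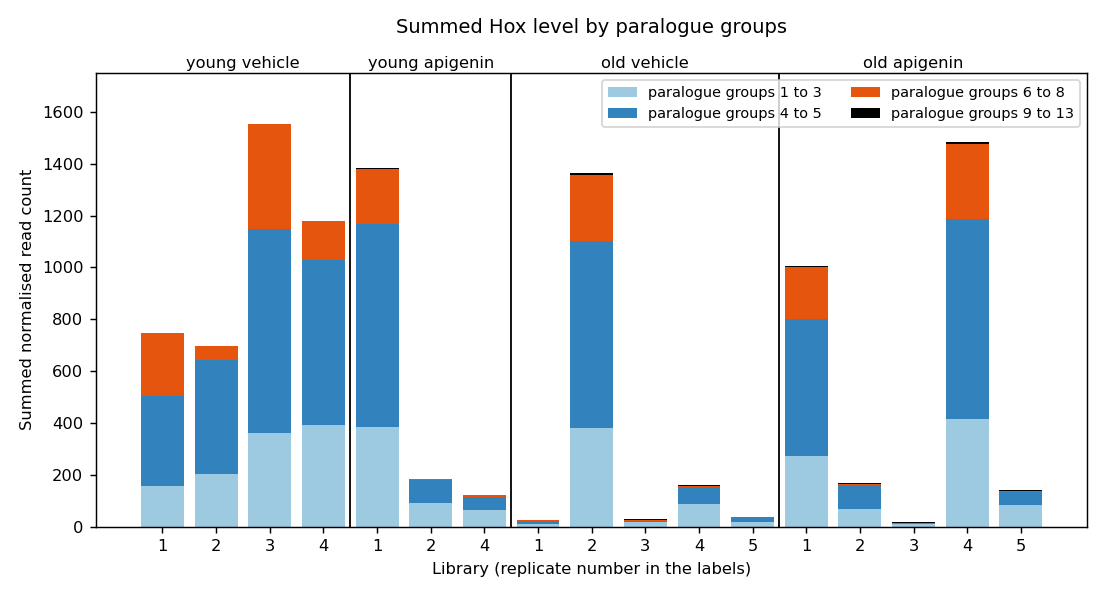
Summed normalised read count of the 39 Hox genes in each library (bars, by group and replicate number), split by paralogue groups. Young vehicle libraries stood at 698 to 1554, while 4 of the 5 old vehicle libraries stood at 27.5 to 161 and the other at 1362.

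Among the genes of groups 1 to 3, Hoxb3 had reads in every library. Hoxb3 (chr11:96323326-96347930, plus strand), a gene of the caudal hindbrain, held 70.1, 68.4, 153 and 141 in young vehicle mice and 145, 40.0 and 26.8 in young apigenin mice. It held 1.96, 182, 4.23, 35.7 and 3.93 in old vehicle mice and 125, 40.9, 2.07, 173 and 38.4 in old apigenin mice. The values of the old groups thus ran from a few reads to above the young groups, with old vehicle 2 and old apigenin 4 highest. Hoxa2 (chr6:52162417-52164831, minus strand), which reaches furthest forward in the hindbrain, held 12.2, 12.3, 25.3 and 45.8 in young vehicle mice and 2.94, 21.5, 0, 9.53 and 0.983 in old vehicle mice. Its young apigenin values were 30.5, 6.15 and 6.05, and its old apigenin values were 20.4, 10.2, 0, 20.8 and 9.84. Hoxd3 (chr2:74711927-74748442, plus strand) held 25.3, 34.7, 58.8 and 82.5 in young vehicle mice against 0, 63.6, 0, 8.34 and 0.983 in old vehicle mice. Hoxa3 and Hoxb2 followed the same libraries, with 49.1 and 77.5 as their highest values and 0 as their lowest.

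Hoxb5 (chr11:96303336-96306121, plus strand), of groups 4 to 5 and the member with the highest mean, marks the caudal medulla and cord. It held 137, 161, 293 and 270 in young vehicle mice and 247, 23.6 and 9.51 in young apigenin mice. It held 1.96, 278, 0, 4.76 and 4.91 in old vehicle mice and 170, 18.4, 0, 283 and 9.84 in old apigenin mice. Each group outside young vehicle thus held both high and low libraries. Hoxa5 (chr6:52201754-52204587, minus strand), its paralogue, held 81.5, 93.9, 146 and 103 in young vehicle mice and 199, 10.3 and 15.6 in young apigenin mice. Its old vehicle values were 0, 145, 0, 7.15 and 4.91, and its old apigenin values were 122, 8.18, 0, 195 and 2.95. Hoxc4 (chr15:103018934-103036852, plus strand) held 49.7, 67.4, 126 and 108 in young vehicle mice and 3.92, 125, 4.23, 21.4 and 0.983 in old vehicle mice. Hoxa4, Hoxb4, Hoxd4 and Hoxc5 reached 74.7, 58.9, 40.6 and 57.8 and were lowest, at 0, in at least 1 old library each.

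Groups 6 to 8 were close to absent wherever the summed level was low. Hoxb8 (chr11:96281905-96285315, plus strand), a gene of the spinal cord, held 140, 21.4, 235 and 97.4 in young vehicle mice and 119, 1.03 and 0.864 in young apigenin mice. It held 0.98, 128, 0, 0 and 0 in old vehicle mice and 102, 0, 0, 149 and 0 in old apigenin mice. Hoxb6 (chr11:96292476-96301569, plus strand) held 55.4, 24.5, 91.3 and 33.2 in young vehicle mice and 0, 76.7, 0, 0 and 0 in old vehicle mice. Its values were 54.6, 0 and 0.864 in young apigenin mice and 71.8, 0, 0, 82.2 and 0.984 in old apigenin mice. Both genes were thus high in 8 libraries and at 1 read or fewer in the other 9. Hoxb7, below the filter, held 2.04 to 28.4 in the same 8 libraries and 0 in the other 9.

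The mix of paralogues differed between libraries as well as the sum. Groups 6 to 8 gave 32.5% of Hox reads in young vehicle 1 (95% Clopper-Pearson interval 29.4 to 35.6%, 297 of 915 reads) but 7.89% in young vehicle 2 (5.99 to 10.2%, 54 of 684 reads). These intervals, which cover counting error only, did not overlap although the summed levels of the 2 libraries were alike. In the 5 libraries with sums of 122 to 186 the share was 1.48 to 4.26%, from 2 to 6 reads each. In the 4 libraries with the lowest sums it was 5 to 14.3%, from 1 to 4 reads each. The intervals overlap, such as 4.03 to 32.7% in old vehicle 1, of the lowest libraries, and 0.18 to 5.25% in old vehicle 4, of those at 122 to 186. These reads are too few to order the shares of these 2 ranges. Groups 1 to 3 gave 21.1 to 33.4% in the 8 libraries above the gap and 41.5 to 59.4% in the 5 libraries at 122 to 186 and 42.9 to 55.2% in the 4 lowest. The ratio of Hoxb8 to Hoxb5 was 1.02, 0.133, 0.803 and 0.36 in young vehicle mice. It was 0.482 and 0.0435 in young apigenin 1 and 2, 0.461 in old vehicle 2, and 0.6 and 0.528 in old apigenin 1 and 4, and was not formed where Hoxb5 had fewer than 20 reads. The ratio of Hoxb5 to Hoxb3, formed where Hoxb3 had at least 20 reads, was 1.91 to 2.36 in young vehicle mice and 1.70, 0.59 and 0.355 in young apigenin 1, 2 and 4. It was 1.53 and 0.133 in old vehicle 2 and 4, and 1.36, 0.45, 1.63 and 0.256 in old apigenin 1, 2, 4 and 5. At both ages it was thus above 1 in the libraries with a summed level above the gap and below 1 in those at 122 to 186. Both genes are part of the sum, so the ratio is not independent of it, and Hoxb5 held 4 to 23 reads in the libraries at 122 to 186. Whether the cut between brain and cord differed was not tested.

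A further 2 members departed from the others, Hoxd1 only in part. Hoxd1, of the first paralogue group, held 1.63 to 22.7. Its median fell with the sum, from 11.9 in the 8 libraries above the gap to 5.13 in the 5 at 122 to 186 and 3.15 in the 4 lowest. Its highest old vehicle value, 15.5 (13 reads), was in old vehicle 4, close to the 15.0 (16 reads) of old vehicle 2. Hoxd13, a gene of limb and genital buds, was highest at 6.20 (6 reads) in old apigenin 3, the library with the lowest sum. They were chosen after their values were seen, and their values rest on few reads.

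The annotation adds an uncertainty to some members. Whether strand was used in counting is not given in the sources used here, and 9 of the 14 tested members share exon sequence with another gene, 5 on the same strand and 7 on the opposite one. The largest shares were those of Hoxd3 (53.1% of its exon length) and Hoxb3 (52.9%, with the antisense RNA gene Hoxb3os), and Hoxd3 and Hoxd4 share exons with each other. Hoxa5, Hoxb4, Hoxb6, Hoxb8 and Hoxc4 share none, and of these Hoxa5 ran from 0 to 199 and Hoxb8 from 0 to 235.

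In the comparison of old with young vehicle mice the fitted differences of the Hox genes were negative, and none passed the test. All 14 log2 differences were below 0, from -4.93 for Hoxb8 to -2.26 for Hoxa2, with a median of -3.14 against 0.04 over all genes. limma called 0 of the 14 (adjusted p = 0.0979 to 0.188), where 3.93% of 15808 genes were called, 0.803% lower and 3.13% higher. At an unadjusted p under 0.05 limma gave 14 of 14, against 19.4% of all genes, and the members are not independent of each other. edgeR and DESeq2, on recovered reads, also called 0 members, where they called 506 and 1028 of the 15808 genes. Each had 1 of 14 members with an unadjusted p under 0.05, against 3032 and 3123 of the 15808 genes. Hoxb5 differed by -4.73 ± 1.55 (SE), 26.5-fold lower on the log2(value + 1) scale, with a 95% interval of -7.99 to -1.47 (limma adjusted p = 0.0979). The old values of Hoxb5 lay below every young value in 4 of 5 old libraries, and old vehicle 2 lay above 3 of the 4 young libraries. The groups overlapped for 14 of 14 members. Thus 0 of 14 had every old value below every young value, against 3.44% of all genes.

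The calls of this comparison depended on how single libraries entered the fit. Without old vehicle 2 limma called 3 of the 14 members. These were Hoxa3 (adjusted p = 0.0427), Hoxb5 (-6.02, adjusted p = 0.0307) and Hoxd3 (adjusted p = 0.0455), where 2.08% of all genes were called and 0.392% were called lower. With weights that limma estimates for each library, 14 of 14 were called (adjusted p = 0.00249 to 0.0123), where 12.7% of all genes were called and 4.28% were called lower. The part of old vehicle 2 in the weighted result was not tested.

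Among apigenin mice 12 of the 14 age differences were below 0, and none passed the test. The median over the 14 members was -0.47, from -1.23 to 0.48, and 0 were called by limma (adjusted p = 0.752 to 0.985), where 1.76% of all genes were called, 0.342% lower and 1.42% higher. The sign of the median turned to 0.49 without young apigenin 1. Hoxb5 differed by -0.67 with an interval of -4.21 to 2.88 (limma adjusted p = 0.902), so large differences in either direction lie within its error.

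**Figure D3:**
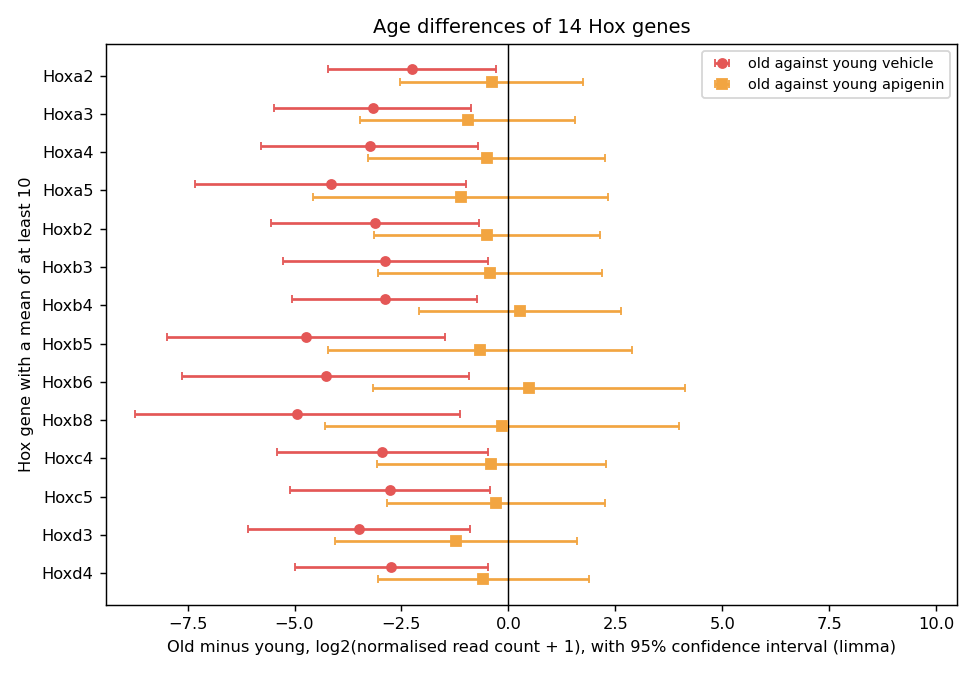
Old minus young difference of the 14 tested Hox genes in vehicle mice (circles) and apigenin mice (squares), on the log2(normalised read count + 1) scale, with 95% confidence intervals from limma. The vehicle differences run from -4.93 to -2.26 with unadjusted intervals that stop below 0, and those of apigenin mice, from -1.23 to 0.48, have intervals across 0.

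Apigenin against vehicle gave no called Hox gene at either age. In old mice the median was 1.36, from 0.87 to 1.70, and limma called 0 of 14 (adjusted p = 0.986) and 0% of all genes, with 0 of 14 against 2.41% at an unadjusted p under 0.05. The median was 0.63 without old apigenin 4 and 2.28 without old vehicle 2. With library weights it was 3.74, and 14 of 14 were called (limma adjusted p = 0.0204 to 0.0458), where 6.25% of all genes were called and 4.16% were called higher. In young mice the median was -1.38, from -3.59 for Hoxb8 to -0.81, and it was -0.66 without young apigenin 4 and -2.38 without young apigenin 1, with 0 of 14 called by limma (adjusted p = 0.999) and 0% of all genes, and 0 of 14 against 3.10% at an unadjusted p under 0.05. The test of the difference between the ages, the interaction, gave a median of 2.58 from 1.87 to 4.78. limma called 0 of 14 for it and 0% of all genes, and 0 of 14 against 1.24% had an unadjusted p under 0.05. edgeR and DESeq2 also called 0 of 14 in each of these comparisons, with 0 of 14 at an unadjusted p under 0.05. Of all 15808 genes edgeR had 391 in old mice, 377 in young mice and 193 for the interaction at that unadjusted threshold. DESeq2 had 403, 384 and 185. After adjustment edgeR called 0 of all genes in each, and DESeq2 called 0, 1 and 0. The comparisons share libraries with the age comparisons, so their values are not separate pieces of evidence.

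The number of other genes that moved with the Hox level of a library depended on the test. The slope of each gene on the log2 of the summed Hox level was fitted within the 4 groups, in log2 units of the gene per log2 unit of the sum. limma called 20 of 15794 other genes (0.127%), 18 with a positive slope (0.114%) and 2 with a negative one (0.0127%), and the median slope over all genes was 0.01. DESeq2 called 362, among them all 20, edgeR called 22, and limma called 188 with the sum not on a log scale and 2 with the replicate number as a block. At an unadjusted p under 0.05 limma had 14.9% of genes, 9.99% positive and 4.91% negative. The positive genes with the smallest p included Spp1, Pax8, Serpinb1b, Fibin, Prph, Mab21l2, Hotairm1, Nkx6-1 and Dbh, with slopes of 0.17 to 0.51. Several are known from hindbrain neurons. Spp1 (adjusted p = 0.000478, limma) was called in each of the 17 fits that left out 1 library. Pax8, Serpinb1b, Prph and Satb1 were called in 16 of the 17, Fibin in 15, and Mab21l2 and Hotairm1 in 13. Dbh was called in 8, Nkx6-1 in 7, Calca and Teddm2 in 6 and Slc6a5 in 4, so for these 5 genes most of the fits gave no call. The number of called genes ranged from 2 without old vehicle 2 to 85 without young vehicle 1.

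Spp1, a secreted phosphoprotein, held 731, 826, 1124 and 1184 in young vehicle mice and 720, 1615, 686, 1102 and 831 in old vehicle mice, with a slope of 0.22. Its level was thus far higher than that of any Hox gene and its range narrower. Pax8, a paired-box factor, ran from 5.17 in old apigenin 3 to 80.5 in old vehicle 2 (slope 0.51, limma adjusted p = 0.00172). Prph, the intermediate filament peripherin of motor and peripheral neurons, ran from 70.9 in old vehicle 3 to 478 in old apigenin 1 (slope 0.32, limma adjusted p = 0.00501). In old apigenin 1 the mean of the peripheral nerve list was also high, at 7.97 against 6.27 to 6.89 elsewhere on the log2(value + 1) scale, and its part in the Prph value was not tested.

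On the negative side Satb1, a chromatin organiser, and Teddm2 passed, with slopes of -0.08 and -0.25 (limma adjusted p = 0.00789 and 0.0395). The other 8 negative genes with the smallest p did not pass. Among them were the forebrain factors Tbr1 (-0.10, 0.0597), Neurod6 (-0.08, 0.0597) and Bcl11b (-0.09, 0.0656) in limma.

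The lists of medulla and cord interneurons, motor neurons, monoamine nuclei, cerebellum, and midbrain and diencephalon had positive median slopes. The forebrain list had a negative one. Of the other regional lists, hypothalamus had a median slope of 0.03 and olfactory bulb of -0.0006. Among cell type lists choroid plexus (0.08), meninges (0.06), myelin (0.03) and astrocytes (0.03) were positive, and microglia (-0.002) and endothelium (-0.02) negative. The list of medulla and cord interneurons had 2 of 13 genes called by limma, Slc6a5 among them, with a median slope of 0.25 against 0.01 over all genes. Slc6a5, the glycine transporter of inhibitory neurons, had a slope of 0.60 (adjusted p = 0.0442), which was 0.36 without young vehicle 1 and old apigenin 3, and edgeR did not call it (adjusted p = 0.0585). Of 8 motor neuron genes limma called 2, Prph and Calca (0.27, adjusted p = 0.0395), and 5 of 8 had an unadjusted p under 0.05, all positive. The slopes of the 8 had a median of 0.14 and ran from -0.03 for Isl1 to 0.34, and Chat had 0.04 (limma adjusted p = 0.597). Isl1 and Chat were named after their values were seen. Of 9 genes of the monoamine nuclei limma called 1, Dbh (0.21, adjusted p = 0.0380), the last enzyme of noradrenaline synthesis. For the forebrain list limma called 0 of 15 genes, with 11 of 15 at an unadjusted p under 0.05, all negative against 4.91% of all genes, and a median slope of -0.08. edgeR called 1 of the 15 and DESeq2 called 7, all negative. For midbrain and diencephalon limma called 0 of 12, with Irx2, an Iroquois factor, nearest (0.16, adjusted p = 0.0656), and 5 of 12 at an unadjusted p under 0.05, 4 of them positive, while edgeR called 0 and DESeq2 called 2.

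Cerebellar genes were low in 2 libraries, of which 1 had a high Hox level and 1 a low one. limma, edgeR and DESeq2 called 0 of 16 cerebellar genes for the slope, with 10, 2 and 3 at an unadjusted p under 0.05, and the median slope in limma was 0.20. The list mean, on the log2(value + 1) scale, was 9.35 in young vehicle 1 and 7.25 in old apigenin 3, and 10.8 to 11.6 in the other 15 libraries. Pcp2, a Purkinje cell gene, held 342 and 2.07 in these libraries against 593 to 1713, and its slope of 0.60 was 0.07 without these libraries. Young vehicle 1 thus had low cerebellar genes with a summed Hox level of 746, and the 4 libraries with sums of 19.6 to 39.3 included 3 with cerebellar means of 11.1 to 11.4. Over the 15 other libraries the summed Hox level ran from 27.5 to 1554. Young vehicle 1 was also low for midbrain and diencephalon (7.42 against 8.23 to 8.66 in the other 16) and old apigenin 3 for medulla and cord interneurons (4.38 against 5.55 to 7.04). The next lowest mean of that list, 5.55, was in young vehicle 1, despite its summed Hox level of 746. Old vehicle 1, 3 and 5, with sums of 27.5 to 39.3, held 5.95, 5.79 and 5.86.

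**Figure D4:**
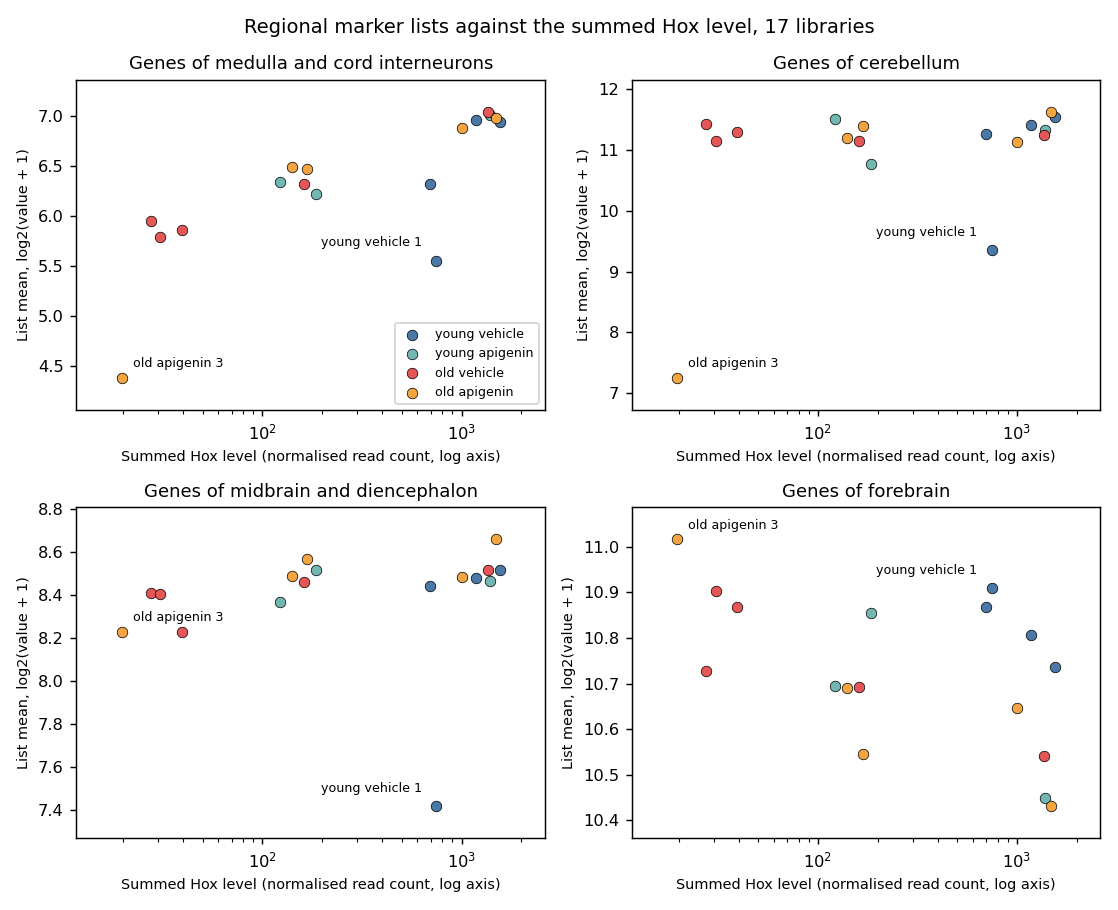
Mean log2(normalised read count + 1) of 4 lists of regional marker genes (vertical axes) against the summed Hox level (horizontal, log axis) in each library, coloured by group. The medulla and cord list ran from 4.38 in old apigenin 3 to 7.04, and the cerebellar list stayed at 10.8 to 11.6 in all but young vehicle 1 (9.35) and old apigenin 3 (7.25).

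Within the Hox clusters, 2 of the 15 RNA genes in the table reached a mean of 10. Hotairm1, which is read from the front end of the Hoxa cluster, held 4.09 to 40.4 and had a slope of 0.43 (limma adjusted p = 0.0199). Haglr, an antisense RNA of the Hoxd cluster, held 2.95 to 28.4 (0.32, adjusted p = 0.155). Both share exons with Hox genes on the opposite strand, so their reads may not be separate. Of 8 genes flanking the clusters limma called 0, with 1 at an unadjusted p under 0.05, Evx1, the homeobox gene next to Hoxa13 (0.31, adjusted p = 0.155), and edgeR and DESeq2 called 0.

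No cofactor or regulator of Hox genes passed the test for the slope. Of the 9 TALE cofactors limma, edgeR and DESeq2 called 0 for the slope, with 3 at an unadjusted p under 0.05 in each, and the median slope was 0.00. The nearest were Meis1 (0.10, limma adjusted p = 0.233) and Pknox2 (-0.04, 0.247), and the list mean stayed at 10.2 to 10.6 over the libraries. Of 10 upstream regulators limma called 0 for the slope (2 at an unadjusted p under 0.05), as did edgeR and DESeq2 (4 and 3), and the nearest in limma was Aldh1a2, which makes retinoic acid (0.10, adjusted p = 0.207). Cdx2 and Cdx4, regulators of posterior Hox genes, had 0 reads throughout. With age in vehicle mice limma called 1 of the 10 regulators higher and 1 lower, where 3.13% of all genes were called higher and 0.803% lower. The regulator that fell was Gdf11, a signal of axial patterning named here after its values were seen. It fell by 0.37 (limma adjusted p = 0.0445). Of 17 Polycomb and trithorax genes, which hold Hox genes off and on, limma called 0 for the slope with 3 at an unadjusted p under 0.05. edgeR and DESeq2 also called 0 (0 and 1). For age limma called 1 of the 17, Ezh1 (0.20, adjusted p = 0.0443), where 3.93% of all genes were called.

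The age comparison of other genes was also fitted with the Hox level. With group means alone 622 of 15808 genes were called between old and young vehicle mice, 495 of them higher. With the summed Hox level as a further term 1159 were called (7.33%), 824 higher (5.21%) and 335 lower (2.12%). The 469 genes called in both made up 75.4% of the first set and 40.5% of the second. The gain rests on old vehicle 2, the old vehicle library with a high Hox level. Without it 329 genes were called with group means alone and 191 with the term. In the group of old vehicle mice age and a low Hox level go together in 4 of 5 libraries, so the share of each cannot be told apart there.

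The median age difference of 3 regional lists had the other sign with the term. The median age difference of medulla and cord interneurons was -0.22 without the term and 0.61 with it, that of the monoamine nuclei -0.35 and 0.25, and that of motor neurons -0.24 and 0.33, with 0 genes called in any of these by limma either way. For the forebrain list it was -0.10 and -0.39, with 0 of 15 genes called without the term. With it 6 were called lower, where 2.12% of all genes were, among them Tbr1, Neurod6, Bcl11b, Fezf2 and Lhx2. Fezf2 and Lhx2 were named after their values were seen. Without old vehicle 2 limma called 0 of the 15 with the term. Myelin genes were higher in old mice in both fits, 7 of 12 without the term and 9 of 12 with it, with medians of 0.31 and 0.43. Of all genes 3.13% and 5.21% were called higher in these fits.

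**Figure D5:**
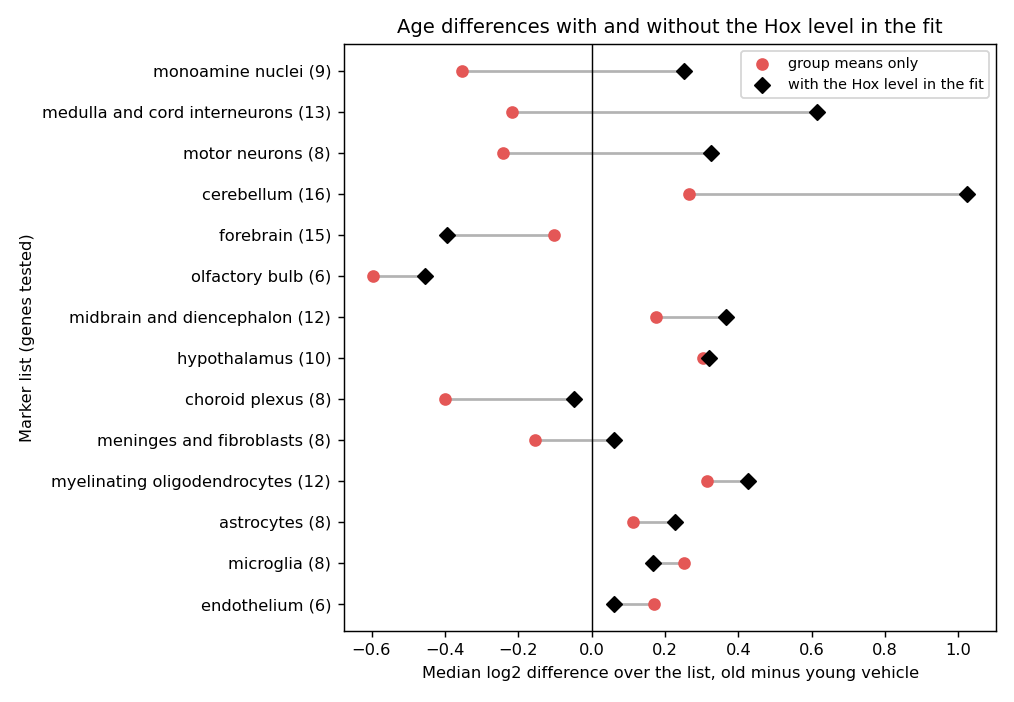
Median log2 difference, old minus young vehicle, over each list of marker genes (rows, with the number of genes tested), from group means alone (circles) and with the summed Hox level in the fit (diamonds). Medulla and cord interneurons moved from -0.22 to 0.61 and forebrain from -0.10 to -0.39, while myelinating oligodendrocytes stayed above 0 (0.31 and 0.43).

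Markers of tissue that a dissection may carry were given for the same libraries. limma called 0 genes for the slope among 3 tested genes of pituitary, 7 of peripheral nerve and 8 of muscle, with 1, 2 and 0 at an unadjusted p under 0.05, and edgeR and DESeq2 called 0 as well. The pituitary hormone gene Gh held 345 in young vehicle 1 and 151 in old apigenin 4, and 0 in 10 of the 17 libraries. The median age difference of 8 choroid plexus genes in vehicle mice was -0.40 without the Hox term and -0.05 with it, with 0 called by limma in either fit. Of these 8 limma called 0 for the slope, with 3 at an unadjusted p under 0.05. It also called 0 of 6 olfactory bulb genes, 10 of hypothalamus, 8 of meninges, 12 of myelin, 8 of astrocytes, 8 of microglia, 6 of endothelium and the 1 tested blood gene. Of these 1, 1, 2, 3, 5, 2, 0 and 0 had an unadjusted p under 0.05, edgeR called 0, and DESeq2 called 1, an astrocyte gene with a negative slope. The part of these tissues and cells in the Hox levels was not tested.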

How the data were processed

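The authors deposited a table of normalised read counts (unit: signal), which are reads divided by a factor of each library; this reading comes from the values, 100% of which were whole reads within 0.01 of a read. The tools named are STAR and DESeq2, with the mouse build mm10 (no role given), per the submitters' processing notes. Not given in the sources used here are versions, the counting program, the annotation and strand. RNA was purified on a Zymo column, selected with oligo-dT beads and made into TruSeq libraries, per the labels' protocols. Depth was recovered as 28171596 to 41145635 reads per library. Of 24411 rows, 6 in which values had slipped were left out, as was young apigenin 3. The slip in its column starts at Mrpl14, after the Hox rows.

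limma 3.58.1 (R 4.3.3, mean-variance trend) was fitted to log2(value + 1), with 4 group means over 17 libraries, for 15808 genes with a mean of at least 10. P-values were two-sided and adjusted by Benjamini-Hochberg over all genes tested, with a threshold of 0.05. Slopes used log2(summed Hox value + 1) beside the group means. Alternatives were pseudocounts, filters, quantile normalisation, edgeR 4.0.16 and DESeq2 1.42.0 on recovered reads, library weights, a replicate block and leaving out each library. Leaving out young vehicle 1 with old apigenin 3, and combining the Hox term with other alternatives, were added after the data were seen. The limma and edgeR fits were also run on simulated counts with the same spread beyond counting error for every gene. Only genes other than Hox genes were changed there, so changes in Hox genes were not tested in this way.

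The Hox members and all marker lists were chosen with earlier results of these data known. Named genes were all members, the 10 genes per sign with the smallest slope p (without predicted genes and pseudogenes) and up to 4 per list by slope p; others are marked. Some genes and sequences that these rules name are not reported here. Intervals for shares are 95% Clopper-Pearson and zero counts allow 3 reads.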

Additional observations from a re-analysis of the deposited data

Results flagged for a closer look

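Of 72 combinations of an item and a group of 4 or 5 libraries, 20 held a library whose gap to its nearest neighbour was a large part of the group's range (above Dixon's 95% critical value for that number of libraries). By chance about 1 of 20 groups pass this value if the values follow a normal distribution, which was not tested here. The items of a library are not independent. Hox genes and the summed Hox level were entered as normalised read counts, and list means on the log2(value + 1) scale. Whether the Hox items pass on the log2(value + 1) scale was not tested.

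Of these, 15 were old vehicle 2, which was the high library for 13 of the 14 tested Hox genes, all but Hoxa2. Its value was 45.8 for Hoxa3, 64.6 for Hoxa4 and 145 for Hoxa5. It was 46.8 for Hoxb2, 182 for Hoxb3 and 39.3 for Hoxb4. It was 278 for Hoxb5, where the other old vehicle libraries held 0 to 4.91. It was 76.7 for Hoxb6, at 0 in the other 4, and 128 for Hoxb8. It was 125 for Hoxc4, 40.2 for Hoxc5, 63.6 for Hoxd3 and 29.0 for Hoxd4. The summed Hox level was 1362 there against 27.5 to 161 in the other 4, and the mean of the motor neuron list was 6.97 against 5.87 to 6.10.

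Young vehicle 1 was the low library of its group for the lists of cerebellum (9.35 against 11.2 to 11.5), monoamine nuclei (6.59 against 7.30 to 7.37) and midbrain and diencephalon (7.42 against 8.44 to 8.52). Old apigenin 3 was the low library for cerebellum (7.25 against 11.1 to 11.6) and for medulla and cord interneurons (4.38 against 6.47 to 6.98). The cause was not tested for any of these libraries.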

How the results depend on the processing

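The log2 differences of the 14 tested Hox genes between old and young vehicle mice kept their sign in all alternatives run. None of these was called in the main fit. For the other called genes only counts were compared, not the sign of each gene. The median age difference of the Hox genes in apigenin mice, -0.47, ranged from -1.13 to 0.49 when each library was left out and was 0.45 without both young vehicle 1 and old apigenin 3. The count of called Hox genes between old and young vehicle mice, 0, became 14 with library weights and ranged from 0 to 3 when each library was left out. For apigenin in old mice it became 14 with library weights, and in the other comparisons and alternatives run it stayed 0. The count of genes called for the Hox level, 20, was 12 without a filter, 12 after quantile normalisation, 362 with DESeq2, 188 with the sum not on a log scale and 31 with a mean of log2 values; leaving out each library gave 2 to 85. The count over all genes between old and young vehicle mice, 622, was 1028 with DESeq2, 2001 with library weights, 1159 with the Hox term and 1215 with the Hox sum not on a log scale; leaving out each library gave 246 (without young vehicle 2) to 708. The count with the Hox term, 1159, was 612 without both young vehicle 1 and old apigenin 3; leaving out each library gave 191 to 1354. The share of higher genes among the 622, 495, was 582 of 1028 with DESeq2, 328 of 506 with edgeR and 282 of 439 after quantile normalisation. The median interaction over the Hox genes was 5.18 with library weights. The causes were not tested.

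With the replicate number as a block, 388 genes were called for age, 2 for the Hox level and 610 for age with the Hox term, and 0 Hox genes in any comparison. Libraries with the same number in different groups did not deviate together: over 22 such pairs the median correlation of deviations was 0.00, 4 were above 0.1, and so were 17 of 85 other pairs.

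Limits: Hox genes rest on 19 to 1568 reads per library, so low values carry large counting error, and shares by paralogue group are imprecise where the sum is low.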
